A study of Mus musculus with 3 samples.

Results

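The insulin-like growth factor (IGF) genes described here were 8 of the 32285 genes counted in single cells of the mouse lacrimal gland (LG), the exocrine gland that makes the watery layer of tears. They were *Igf1*, *Igf1r*, *Igfbp2*, *Igfbp3*, *Igfbp4*, *Igfbp5*, *Igfbp6* and *Igfbp7*, and all were present in every library. The set was defined by gene name, with earlier results of these data known. The study dissociated LGs of untreated C57BL/6J mice aged 2 months and sequenced droplet libraries that count messenger RNA molecules by unique molecular identifiers (UMIs). There was 1 female library and there were 2 male libraries, called Female 1, Male 1 and Male 2 below, each a pool of the glands of several mice. The female library was prepared at a different core facility and on a different day from the male ones, so that sex cannot be told apart from core or day, and 1 female library allowed no test of sex. Values of the 3 libraries are given in the order Female 1, Male 1, Male 2.

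IGF1 is a secreted growth factor that acts on neighbouring cells through IGF1R, a receptor tyrosine kinase that signals through insulin receptor substrates to PI3K and AKT. Most extracellular IGF is held by IGF-binding proteins, which carry it, limit its access to the receptor and release it when proteases such as pregnancy-associated plasma protein A cut them. IGFBP7 belongs to the same wider family but binds IGF weakly and is known as a protein of blood vessel walls. In glands, such signals pass between stroma and epithelium, so which cells carry the RNA of the ligand, the receptor and the binding proteins is the question of the comparison between cell classes.

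After filtering, 7652, 5295 and 5397 cells were kept, with a median of 3254, 1885 and 1789 UMIs per cell. Clustering, with the IGF genes left out of the genes that build the clusters, gave 10 classes named from marker genes, and 18248 of the 18344 cells fell in them. The classes were acinar-like cells, *Ltf+* epithelial-like cells, duct-like cells, myoepithelial-like cells (MEC-like, the contractile cells around acini), fibroblast-like, mural-like (pericytes and smooth muscle of vessels), endothelial-like, lymphoid-like, macrophage-like and monocyte/dendritic-like cells. The monocyte/dendritic-like class also carried mast and plasma cell markers, the mural-like class was small, with 53, 44 and 51 cells, and 12 to 18 barcodes were shared by each pair of libraries. Messenger RNA of tear proteins was found in every class, taking 80.1 to 85.2% of UMIs in barcodes that held no cell and a larger part of the non-epithelial classes in the male libraries (49.0 to 67.6%) than in the female library (26.8 to 41.9%). Levels are given in CPM, the UMIs of a gene in a class of 1 library scaled to a total of 1000000 UMIs. Each IGF gene had 0 to 10 UMIs per library in those barcodes, which held few UMIs in all, and this amounts to 0 to 44.1 CPM, a size that many of the lower class levels share. Sex-linked genes matched the labels in 3 of 3 libraries.

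Of the 8 genes, *Igfbp2* and *Igfbp5* are neighbours on chromosome 1 (GRCm38/mm10 annotation), at chr1:72824503-72852474 on the plus strand and chr1:72857932-72874884 on the minus strand. Their 3' ends point at each other across 5457 bases, and both had their highest level in the same class, the MEC-like cells. The promoters of these neighbours are shown because they share a class and a chromosomal place. The lines give the 250 bases before a RefSeq start (GRCm38.p6), the first of 2 starts for *Igfbp2* and the single one for *Igfbp5*, read 5′ to 3′ on the strand of the gene, at chr1:72824230-72824479 for *Igfbp2* and chr1:72874866-72875115 for *Igfbp5*. Capitals mark matches to the GC box GGGCGG, the E-box CACGTG and the TATA-like run TATTTAA, all searched on both strands.
Igfbp2: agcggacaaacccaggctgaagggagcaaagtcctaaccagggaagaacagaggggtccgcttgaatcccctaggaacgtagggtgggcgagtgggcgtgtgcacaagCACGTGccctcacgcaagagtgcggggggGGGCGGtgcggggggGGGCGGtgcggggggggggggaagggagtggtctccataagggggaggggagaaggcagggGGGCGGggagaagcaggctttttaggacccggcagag
Igfbp5: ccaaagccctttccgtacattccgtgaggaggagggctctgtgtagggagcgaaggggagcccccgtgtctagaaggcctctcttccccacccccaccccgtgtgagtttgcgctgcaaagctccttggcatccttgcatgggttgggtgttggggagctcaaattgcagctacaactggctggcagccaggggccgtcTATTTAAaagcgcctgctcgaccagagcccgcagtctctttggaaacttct
The *Igfbp2* window shown held 3 GC boxes and 1 E-box and was 67.2% G and C, whereas that of its second start, at chr1:72825137-72825386, held 0 of either and was 56.4% G and C. The *Igfbp5* window held no GC box and no E-box, but had 1 TATTTAA run and was 58.8% G and C. Among 32851 windows of the same length, 32.7% held a GC box, 6.02% the E-box, 4.18% TATTTAA, 12.4% TATAAA and 1.47% a CArG box, the motif bound by serum response factor. TATAAA was matched in the windows of *Igfbp4* and *Igfbp6* and not in those of *Igfbp2* and *Igfbp5*. The motifs were chosen with the sequences in view, and a match is a run of letters, not a binding site.

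The other members lie apart from each other. *Igf1* spans chr10:87858265-87937042 on the plus strand, where the start of the antisense gene *Igf1os* overlaps it, but *Igf1os* had 2 UMIs in named cells against 4044 for *Igf1*. *Igf1r* lies at chr7:67952827-68233668 (plus), *Igfbp3* at chr11:7206086-7213923 (minus) and *Igfbp4* on the same chromosome at chr11:99041244-99054392 (plus). *Igfbp6* lies at chr15:102144362-102149511 (plus) and *Igfbp7* at chr5:77349240-77408041 (minus).

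The IGF genes were mostly stromal and myoepithelial. Fibroblast-like cells held the highest mean level of *Igf1*, *Igfbp3*, *Igfbp4* and *Igfbp6*, MEC-like cells that of *Igfbp2* and *Igfbp5*, endothelial-like cells that of *Igfbp7*, and duct-like cells that of the receptor *Igf1r*. The same class came highest for all 8 genes when tear-product and mitochondrial UMIs were left out. Of all UMIs of a gene in named cells, fibroblast-like cells held 98.0% for *Igfbp6*, 87.8% for *Igf1* and 85.5% for *Igfbp4*, while MEC-like cells held 89.0% for *Igfbp2*. For *Igfbp3* the fibroblast-like share was 83.6% in Female 1 but 29.5% and 25.0% in the male libraries, where endothelial-like cells held more, 64.2% in Male 1. For *Igfbp7* it was 56.8% in Female 1, against 39.2% in endothelial-like cells, but 41.2% and 37.6% in Male 1 and Male 2, against 53.6% and 53.9%. For *Igfbp5* it was 56.2% in Female 1, against 36.8% in MEC-like cells, and 18.0% and 31.8% in the male libraries, against 72.7% and 54.6%. For *Igfbp5* and *Igfbp7*, the class with the highest level thus held the most UMIs in the male libraries and not in Female 1. Such shares also depend on how many cells of each class were caught.

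**Figure D1:**
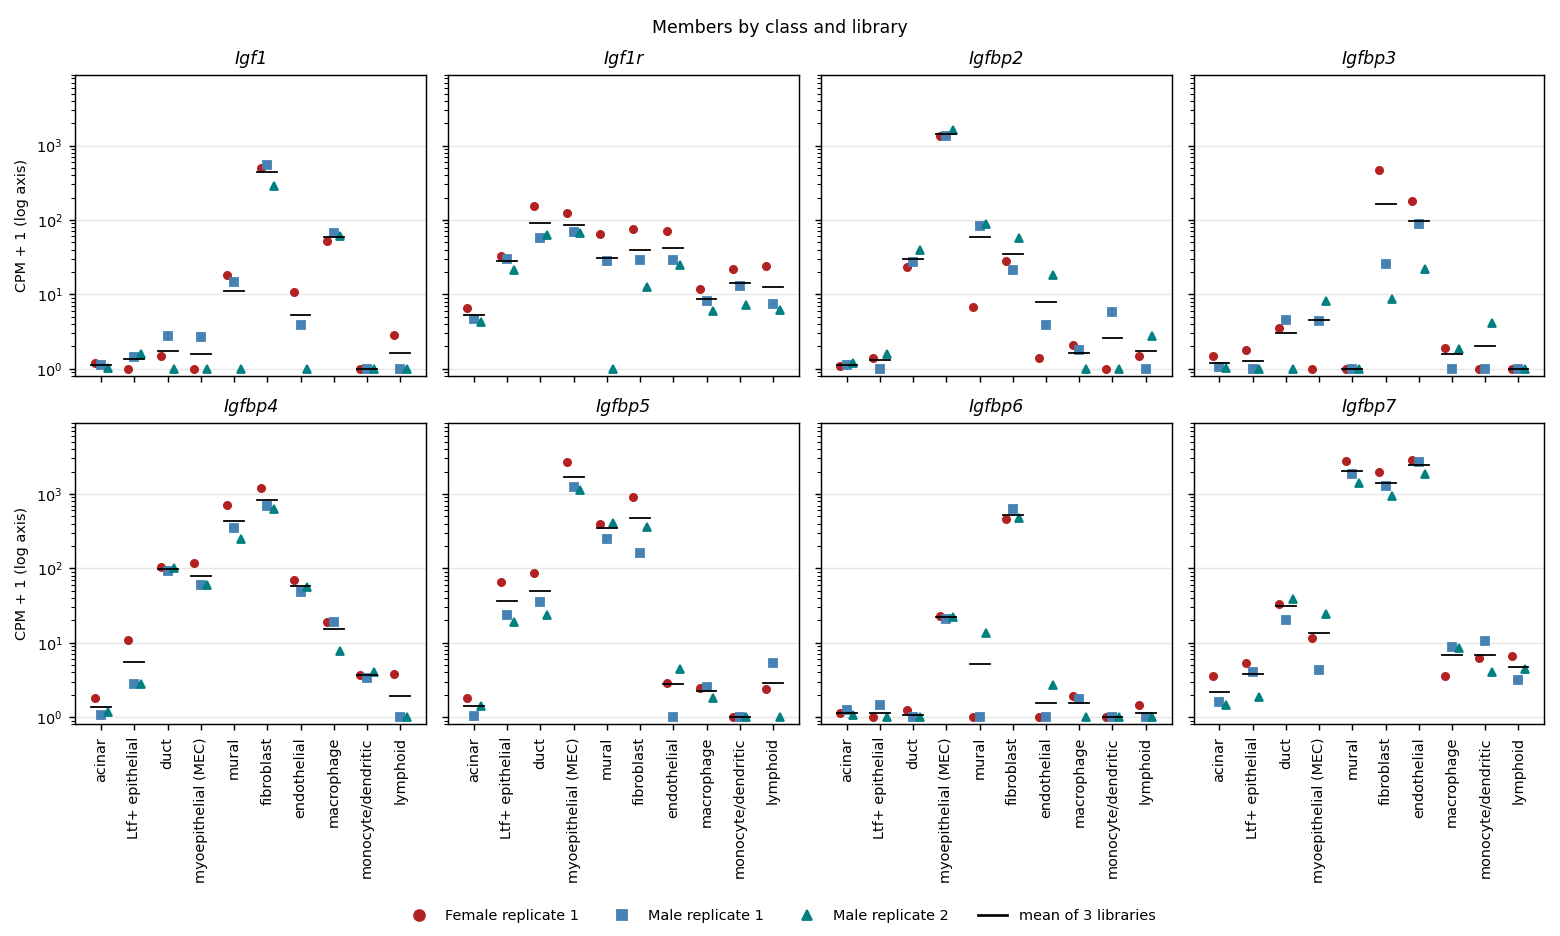
Level of each IGF gene (CPM plus 1, log axis) in 10 cell classes, with 1 point per library and a line at the mean of 3 libraries. *Igfbp6* and *Igf1* stand highest in fibroblast-like cells, *Igfbp2* in MEC-like cells, *Igfbp7* in a group of endothelial-like, mural-like and fibroblast-like cells, and *Igf1r* is spread over most classes.

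Each class was tested against the mean of the other classes with edgeR's quasi-likelihood test on the summed UMIs, with the library as a block and p-values adjusted by Benjamini-Hochberg over 9929 genes. Of 80 tests of the 8 genes, 26 were called higher and 18 lower. *Igfbp3* passed the filter on low counts with 5 of 30 sums, all of them fibroblast-like or endothelial-like, so its higher calls in these classes stand in the counts given here and below but are not read. Fibroblast-like cells had 7 of 8 genes higher, every member but *Igf1r*, beside 28.1% of all genes called higher and 12.8% lower there. MEC-like cells had 5 higher and 1 lower, beside 21.3% and 10.9% of all genes. Mural-like cells had 4 higher and none lower, beside 10.2% and 7.03%, and duct-like cells 4 higher and none lower, beside 18.5% and 8.59%. Endothelial-like cells had 3 higher (23.2% of all genes) and none lower (10.6%).

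In the immune and acinar classes lower calls were the more frequent. With free RNA subtracted, 4 of the 18 lower calls across all classes were made. The cause of this loss was not tested, and no share of all genes is given for that setting. Acinar-like cells had no member higher, beside 32.6% of all genes, and 3 lower, beside 19.7%. Lymphoid-like cells had none higher (19.5% of all genes) and 4 lower (11.7%), and monocyte/dendritic-like cells none higher (17.6%) and 4 lower (10.9%). Macrophage-like cells had only *Igf1* higher, beside 27.4% of all genes, and 3 lower, beside 12.1%. In *Ltf+* epithelial-like cells 2 were higher, *Igf1r* and *Igfbp5* (22.1% of all genes), and 3 lower (11.7%). Where edgeR made 0 calls, higher in acinar-like, lymphoid-like and monocyte/dendritic-like cells and lower in fibroblast-like and mural-like cells, 0 also had an unadjusted p under 0.05 and DESeq2 made 0 calls. In the other places with 0 lower calls, 0 of the duct-like and 0 of the endothelial-like tests had an unadjusted p under 0.05, and DESeq2 made 2 and 1 lower calls. Some of these tests could make no call in either direction. The SE of log2 was 2.58e+06 for *Igf1* and *Igfbp6* in duct-like cells. It was 3.76e+06 for *Igfbp5* and 2.20e+06 for *Igfbp6* in endothelial-like cells, and as large for *Igf1* and *Igfbp5* in acinar-like cells. Such 0 counts therefore do not show that levels were equal.

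This contrast has a limit: a gene with no UMI in a whole class drags the mean of the others down. *Igf1*, *Igfbp5* and *Igfbp6* had no UMI in monocyte/dendritic-like cells of any library, where 3 UMIs would be 7.14 to 9.25 CPM, and *Igfbp3* had none in lymphoid-like or mural-like cells. The only lower call of these 4 genes was that of *Igfbp5* in monocyte/dendritic-like cells, where it was at 0. Against the sum of all other cells in place of their mean, 16 of 80 tests were higher and 58 lower, beside 14.1% and 22.8% of all genes over the 10 contrasts. The counts for single classes turned with it: duct-like cells then had 1 gene higher and 6 lower, MEC-like cells 3 and 5, mural-like cells 3 and 3, endothelial-like cells 2 and 5, and fibroblast-like cells 6 and 1. For *Igf1*, *Igfbp5* and *Igfbp6* the fold changes given below are therefore those against the sum of all others or between neighbouring classes. Between neighbours in the order of a gene's mean CPM, 18 of 72 differences were called, beside 33.1% of all genes over the same pairs of classes.

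*Igf1*, the ligand, was a fibroblast-like gene with a second, lower level in macrophage-like cells. Its level in fibroblast-like cells was 496, 552 and 284 CPM (mean 444 ± 141, SD, n = 3), and in macrophage-like cells 51.8, 65.5 and 59.2 CPM (58.8 ± 6.82, SD, n = 3). All 3 libraries were higher in fibroblast-like cells and the classes did not overlap; the difference was 5.07-fold (log2 2.34, SE 0.25, adjusted p = 2.7e-09). Macrophage-like cells in turn stood 8.32-fold above mural-like cells, at 17.2, 13.5 and 0 CPM (log2 3.06, SE 0.64, adjusted p = 0.000327). Those mural-like values came from 3, 1 and 0 UMIs, so the size of that step is uncertain. Against the sum of all other cells, *Igf1* was 44.2-fold higher in fibroblast-like cells (adjusted p = 6.64e-07), whereas in macrophage-like cells log2 was 0.65 with an adjusted p of 0.24. Epithelial classes had a mean below 1 CPM.

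*Igf1r*, the receptor, was spread over most classes and was the one member whose fibroblast-like level was not called against the mean of the other classes. Duct-like cells had 154, 55.7 and 61.0 CPM (90.1 ± 55.1, SD, n = 3) and MEC-like cells 121, 67.0 and 66.0 CPM (84.7 ± 31.5, SD, n = 3). These neighbours overlapped and did not differ beyond their spread (log2 0.18, SE 0.23, adjusted p = 0.730). Both were above the mean of the other classes, duct-like cells by 2.89-fold (log2 1.53, SE 0.17, adjusted p = 7.6e-09) and MEC-like cells by 2.52-fold (adjusted p = 2.74e-07). MEC-like cells were 1.74-fold above endothelial-like cells, at 70.5, 28.3 and 24.1 CPM (SE of log2 0.24, adjusted p = 0.00874).

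*Igf1r* was also called higher in *Ltf+* epithelial-like cells (31.5, 28.5 and 20.5 CPM), by 1.81-fold with an adjusted p of 0.000154, but with library sizes set by total UMIs log2 was 0.31 and the adjusted p 0.46. Immune classes had the low end, with 10.7, 7.01 and 5.01 CPM in macrophage-like cells, and macrophage-like (log2 -1.76), monocyte/dendritic-like (log2 -1.27) and lymphoid-like cells (log2 -0.92) were all called lower. The lymphoid-like call was lost without Female 1 (adjusted p = 0.0739) or Male 1 (adjusted p = 0.0690), and the monocyte/dendritic-like call without Female 1 (adjusted p = 0.142). Acinar-like cells had the lowest CPM of all, 5.59, 3.71 and 3.28, but 89.6 to 90.5% of their UMIs were tear products. Without tear-product and mitochondrial UMIs their level was 62.4, 41.9 and 39.5 CPM, and the edgeR fit, whose scaling allows for such dominant genes, placed macrophage-like cells 2.53-fold below them (adjusted p = 4.56e-05). The place of acinar-like cells in the order of *Igf1r* therefore depends on the denominator. So does that of *Ltf+* epithelial-like cells. Without those UMIs they had 127, 108 and 114 CPM, against 112, 67.2 and 67.4 CPM in endothelial-like cells.

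*Igfbp2*, which encodes a binding protein with a higher affinity for IGF2 than for IGF1, was above all a MEC-like gene. MEC-like cells had 1357, 1359 and 1595 CPM (1437 ± 137, SD, n = 3), while the next class, mural-like cells, had 5.74, 81.3 and 87.2 CPM. No other class of any library came near the MEC-like values, and the step from MEC-like to mural-like cells was 33.5-fold (log2 5.07, SE 0.46, adjusted p = 5.43e-10). The mural-like values came from 1, 6 and 7 UMIs, so the size of that step is uncertain. Against the mean of the other classes the MEC-like level was 317-fold higher (log2 8.31, SE 0.20, adjusted p = 1.5e-25), and against the sum of all others 170-fold (adjusted p = 3.28e-17). Mural-like, fibroblast-like (27.2, 20.2 and 55.6 CPM) and duct-like cells (22.1, 26.1 and 38.1 CPM) overlapped and their order was not called (adjusted p = 0.894 and 0.634), whereas duct-like cells stood 6.22-fold above endothelial-like cells (adjusted p = 0.000308). The endothelial-like values came from 1, 2 and 10 UMIs, the last all in 1 capillary-like cell, so the size of that fold is uncertain. The mural-like class was called above the mean of the other classes, but without Male 1 it was not (log2 2.66, adjusted p = 0.098). Against the sum of all others, which includes the MEC-like cells, the log2 of *Igfbp2* was negative in mural-like (-0.91), fibroblast-like (-1.25) and duct-like cells (-1.54).

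*Igfbp5*, the convergent neighbour of *Igfbp2*, encodes a binding protein that adheres to extracellular matrix. It too was highest in MEC-like cells, at 2703, 1248 and 1133 CPM (1695 ± 875, SD, n = 3), but was shared with fibroblast-like cells at 920, 162 and 354 CPM (479 ± 394, SD, n = 3) and mural-like cells at 396, 244 and 411 CPM (350 ± 92.5, SD, n = 3). MEC-like cells were above fibroblast-like cells in each library, by 3.61-fold (log2 1.85, SE 0.31, adjusted p = 1.59e-05). Fibroblast-like and mural-like cells overlapped (log2 0.48, adjusted p = 0.443), and mural-like cells were 6.78-fold above duct-like cells (adjusted p = 7.18e-06). Duct-like and *Ltf+* epithelial-like cells formed a lower tier, with 86.3, 34.8 and 22.9 CPM and 64.9, 22.8 and 18.2 CPM, that did not differ between them (adjusted p = 0.316). Their order depends on the denominator. Without tear-product and mitochondrial UMIs *Ltf+* epithelial-like cells had 262, 86.6 and 101 CPM and duct-like cells 129, 81.5 and 53.7 CPM. The *Ltf+* epithelial-like level was 38.9-fold above that of lymphoid-like cells (adjusted p = 1.97e-07). Lymphoid-like cells had 1.40, 4.28 and 0 CPM, from 3, 2 and 0 UMIs, so the size of that fold is uncertain. The log2 of *Igfbp5* against the sum of all others was negative in *Ltf+* epithelial-like (-1.11) and duct-like cells (-1.88). Against that sum, MEC-like cells were 22.8-fold higher (adjusted p = 1.82e-12), fibroblast-like cells 4.15-fold (adjusted p = 0.00046) and mural-like cells 2.11-fold (adjusted p = 0.0224).

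*Igfbp4*, which encodes a binding protein that pregnancy-associated plasma protein A cuts, was highest in fibroblast-like cells and formed a ladder below them. Fibroblast-like cells had 1203, 694 and 619 CPM (839 ± 318, SD, n = 3) and mural-like cells 700, 352 and 249 CPM (434 ± 236, SD, n = 3). Within every library the fibroblast-like value was the higher, although the classes overlapped across libraries, and the difference was 2.26-fold (log2 1.18, SE 0.34, adjusted p = 0.0124). Mural-like cells were 3.89-fold above duct-like cells, which had 104, 92.2 and 99.1 CPM (98.4 ± 5.83, SD, n = 3; adjusted p = 0.000179). Duct-like, MEC-like and endothelial-like cells were not separated in their order, endothelial-like cells were 2.96-fold above macrophage-like cells (adjusted p = 0.00183), and these were 2.38-fold above *Ltf+* epithelial-like cells (adjusted p = 0.0296). The *Ltf+* epithelial-like values came from 25, 4 and 6 UMIs. Without tear-product and mitochondrial UMIs they were 39.6, 6.66 and 9.94 CPM, against 26.9, 37.8 and 16.2 CPM in macrophage-like cells. In Female 1 the order was then reversed. The fibroblast-like level was 43.4-fold above the mean of the other classes (log2 5.44, SE 0.20, adjusted p = 1.79e-21). Endothelial-like cells were called higher by a log2 of 1.22, but without Male 2 the log2 was 0.98 and the adjusted p 0.0539. The direction turned against the sum of all others in endothelial-like (log2 -0.99), duct-like (-0.33) and MEC-like cells (-0.85). With free RNA subtracted the fibroblast-like log2 was 7.64.

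*Igfbp6*, which encodes the binding protein with a marked preference for IGF2, was nearly restricted to fibroblast-like cells in these libraries. They had 455, 635 and 471 CPM (521 ± 99.7, SD, n = 3), and MEC-like cells had 22.2, 20.1 and 21.2 CPM (21.2 ± 1.07, SD, n = 3). The step between them was 27.1-fold (log2 4.76, SE 0.26, adjusted p = 2.91e-15), and the MEC-like class also carried fibroblast markers, at 654 to 799 CPM without tear-product and mitochondrial UMIs. Free RNA held *Igfbp6* at 29.4, 8.63 and 11.6 CPM, from 2 UMIs in each library. The part of either in the MEC-like level was not tested, and that level was below the sum of all others (log2 -1.84). Mural-like cells had 0, 0 and 12.5 CPM, and against the sum of all others fibroblast-like cells were 313-fold higher (adjusted p = 9.53e-08).

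*Igfbp3*, which encodes the main carrier of IGF in blood, was found in fibroblast-like and endothelial-like cells, and Female 1 held most of it. Fibroblast-like cells had 463, 24.6 and 7.58 CPM (165 ± 258, SD, n = 3) and endothelial-like cells 177, 86.2 and 20.7 CPM (94.6 ± 78.4, SD, n = 3). Which class was higher differed between libraries: fibroblast-like cells in Female 1, endothelial-like cells in both male libraries. The next class, MEC-like cells, had 0, 3.35 and 7.07 CPM, from 0, 2 and 3 UMIs. These levels are a description, with no test, because of the filter. Of its 3136 UMIs in named cells, 3017 came from Female 1, 95 from Male 1 and 24 from Male 2.

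*Igfbp7* was highest in endothelial-like, mural-like and fibroblast-like cells. Endothelial-like cells had 2843, 2724 and 1840 CPM (2469 ± 548, SD, n = 3), mural-like cells 2811, 1842 and 1395 CPM (2016 ± 724, SD, n = 3) and fibroblast-like cells 1986, 1299 and 941 CPM (1408 ± 531, SD, n = 3). The 3 classes fell in this order in each library, although without tear-product and mitochondrial UMIs Female 1 had 4503 CPM in endothelial-like and 4937 CPM in mural-like cells, and neighbours overlapped across libraries and were not called (adjusted p = 0.192 and 0.704). Below them came a steep step: fibroblast-like cells stood 52.9-fold above duct-like cells, which had 32.1, 19.1 and 38.1 CPM (log2 5.72, SE 0.47, adjusted p = 9.6e-12). Against the mean of the other classes, endothelial-like cells were 104-fold higher (log2 6.71, SE 0.22, adjusted p = 1.61e-22), mural-like cells 61.1-fold and fibroblast-like cells 48.8-fold. These folds were, against the sum of all others, 14.8, 4.84 and 6.65, and with free RNA subtracted the endothelial-like log2 against the mean was 9.81. Acinar-like cells had 2.52, 0.597 and 0.477 CPM.

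Fibroblast-like cells were not uniform in these genes. They split into parenchymal-like cells (1099, 492 and 283), adventitial-like cells (107, 30 and 46), named from *Pi16* and *Dpp4*, which mark fibroblasts of vessel sheaths, and a small subset named from *Mfap4* and *Cilp* (68, 36 and 25), with 402, 159 and 127 cells unnamed. Each subset was tested against the mean of the other 2 with the same edgeR test over 2643 genes, of which 7 were members. *Igfbp2* passed the filter on low counts through the *Mfap4*/*Cilp* subset alone, and *Igfbp3* with 3 of 9 sums, none of them adventitial-like, so no call is read for either. Adventitial-like cells had *Igfbp5* and *Igfbp6* higher and *Igf1* and *Igfbp7* lower, beside 12.7% and 9.91% of all genes. Parenchymal-like cells had *Igf1* and *Igfbp7* higher and *Igfbp5* and *Igfbp6* lower, beside 10.9% and 6.85%. In the *Mfap4*/*Cilp* subset *Igf1*, *Igfbp4*, *Igfbp6* and *Igfbp7* were higher and *Igfbp5* was lower, beside 6.24% and 5.33%.

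*Igfbp5* was the adventitial-like binding protein. It had 5634, 2113 and 2436 CPM there, and 337, 38.6 and 26.3 CPM in parenchymal-like cells. Every adventitial-like value was above every value of the other subsets, with a 28.6-fold difference from their mean (log2 4.84, SE 0.29, adjusted p = 9.89e-13), and a log2 of 6.37 without Female 1. A UMI of *Igfbp5* was seen in 106 of 107, 28 of 30 and 39 of 46 adventitial-like cells. *Igfbp6* was high in the adventitial-like (1646, 1520 and 1108 CPM) and *Mfap4*/*Cilp* (2201, 1616 and 1333 CPM) subsets, at a log2 of 1.12 (adjusted p = 8.64e-05) and 1.37 (adjusted p = 1.57e-05). In parenchymal-like cells it was 179, 468 and 251 CPM, below both other subsets in every library (log2 -2.50, adjusted p = 3.43e-09).

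*Igfbp7* ran opposite to *Igfbp5* across the same subsets. It had 2364, 1483 and 1386 CPM in parenchymal-like, 2359, 1300 and 1006 CPM in *Mfap4*/*Cilp* and 63.7, 140 and 0 CPM in adventitial-like cells, which were 30.4-fold below the mean of the other subsets (log2 -4.93, SE 0.32, adjusted p = 4.14e-12, and log2 -1.88 with finer clustering). The ligand *Igf1* was likewise low in adventitial-like cells, at 71.0, 34.9 and 54.9 CPM, 9.49-fold below the other subsets (log2 -3.25, adjusted p = 4.06e-09), and with finer clustering the log2 was -0.85. It had 508, 585 and 402 CPM in parenchymal-like cells (log2 1.43, adjusted p = 2.35e-05) and 997, 492 and 327 CPM in the *Mfap4*/*Cilp* subset (log2 1.82, adjusted p = 2.73e-06), and with finer clustering the parenchymal-like value was not called (log2 0.14, adjusted p = 0.73). *Igfbp3* had 622, 29.6 and 12.0 CPM in parenchymal-like, 198, 87.8 and 25.2 CPM in *Mfap4*/*Cilp* and 4.90, 0 and 0 CPM in adventitial-like cells. The *Mfap4*/*Cilp* values came from 44, 5 and 1 UMIs. In adventitial-like cells 3 UMIs would be 7.35, 52.4 and 32.9 CPM, so the male libraries do not separate them from parenchymal-like cells.

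*Igfbp2*, highest in MEC-like cells of the whole gland, was found among fibroblast-like cells mainly in the *Mfap4*/*Cilp* subset. It had 602, 369 and 956 CPM there, 3.05, 2.57 and 12.0 CPM in parenchymal-like cells and 2.45, 0 and 0 CPM in adventitial-like cells. These levels are a description, with no test, because of the filter. A UMI was seen in 13 of 68, 5 of 36 and 8 of 25 cells, and a single cell held up to 38, 13 and 9 UMIs, so the level came from part of the subset. The summed MEC markers were at 0 to 57.2 CPM there, without tear-product and mitochondrial UMIs, against 16537 to 21153 CPM in MEC-like cells. *Igfbp4* was found in all subsets: parenchymal-like cells had 1179, 668 and 620 CPM and adventitial-like cells 1044, 629 and 659 CPM, neither called (adjusted p = 0.147 and 0.166). It was higher in the *Mfap4*/*Cilp* subset, at 1734, 984 and 1358 CPM (log2 0.67, adjusted p = 0.00452), but not without Male 1 (log2 0.73, adjusted p = 0.0512).

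**Figure D2:**
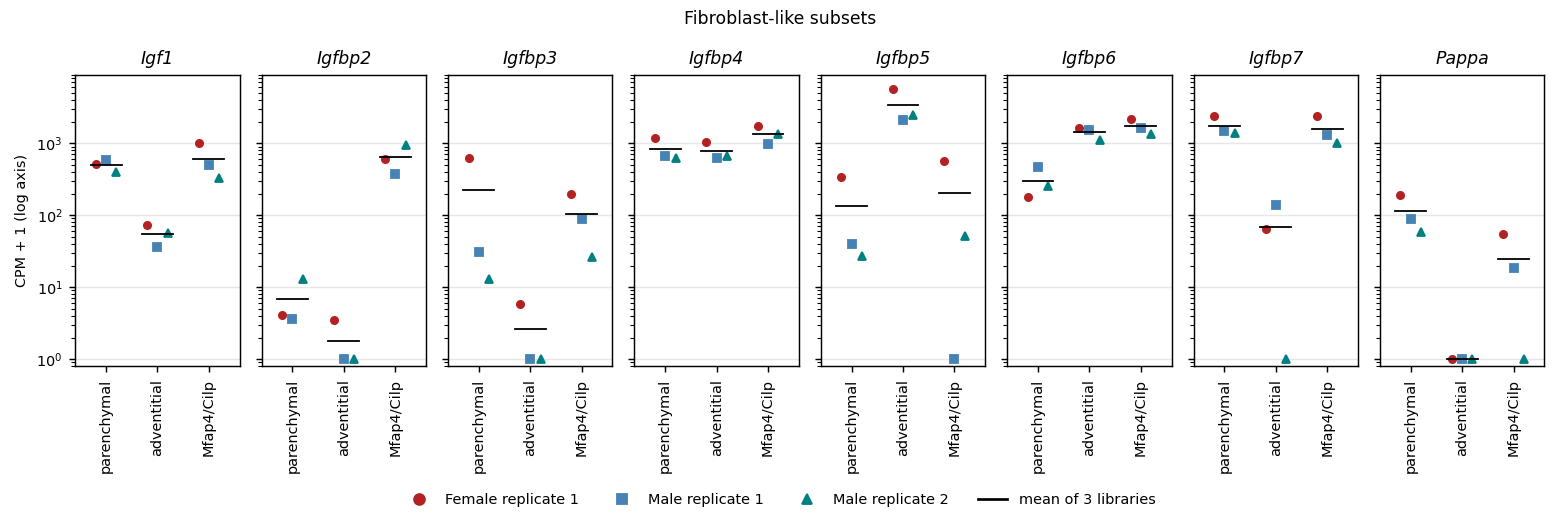
Levels (CPM plus 1, log axis) of 7 IGF genes and *Pappa* in the 3 named subsets of fibroblast-like cells, with 1 point per library and a line at the mean. *Igfbp5* is highest and *Igfbp7* and *Igf1* are lowest in adventitial-like cells, as is *Igfbp3* in Female 1. *Igfbp2* is high in the *Mfap4*/*Cilp* subset.

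Among endothelial-like cells, *Igfbp7* was higher in capillary-like cells than in the other subsets. Of 1815 genes tested, 3 were members. *Igfbp4* reached the minimum of the filter on low counts in 3 venous-like sums and 1 other, and *Igfbp3* in 3 sums, none of them venous-like, so only *Igfbp7* is read as a test. It was higher in capillary-like cells (382, 184 and 105), where 9.64% of all genes were higher and 9.81% lower. It was not called in arteriolar-like cells (138, 66 and 68, with 8.65% and 7.99% of all genes called) and was lower in venous-like cells (170, 117 and 97, with 17.4% and 13.8%), and 255, 105 and 86 endothelial-like cells stayed unnamed. Of the capillary-like cells, 96, 44 and 32 formed a cluster led by *Chia1*, *Amy1*, *BC037156*, *Cst10* and *Ggh*, which also led a cluster of acinar-like cells, followed by *Plvap*, *Podxl* and *Rbp7*. Tear-product messenger RNA took 43.2%, 64.4% and 58.6% of the UMIs of that cluster.

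*Igfbp3* had 270, 145 and 48.0 CPM in capillary-like cells, 241, 48.0 and 47.3 CPM in arteriolar-like cells and 17.8, 22.9 and 14.9 CPM in venous-like cells. In Female 1 these were 333, 79 and 10 UMIs, but in Male 1 they were 41, 4 and 4 and in Male 2 7, 3 and 2, too few to order the subsets there. *Igfbp4* had 171, 120 and 149 CPM in venous-like cells, above all values of capillary-like (30.8, 17.6 and 34.3 CPM) and arteriolar-like cells (58.1, 36.0 and 31.6 CPM). Over all libraries these were 137, 48 and 24 UMIs. In arteriolar-like cells 4 UMIs were 48.0 CPM in Male 1 and 3 UMIs were 47.3 CPM in Male 2. The male *Igfbp4* values there thus rest on fewer UMIs still, and the size of the gap is uncertain. *Igfbp7* was most abundant in capillary-like cells, at 3950, 3699 and 3755 CPM, against 1287, 1681 and 1736 CPM in arteriolar-like and 1490, 1793 and 1408 CPM in venous-like cells. The capillary-like values were above the others in each library and 1.89-fold higher (log2 0.92, SE 0.12, adjusted p = 6.5e-07), and the log2 was 0.89 without the cluster that shared leading genes with acinar-like cells, a choice made after seeing the data. Without tear-product and mitochondrial UMIs capillary-like cells were again the highest in each library, but their 5802 CPM in Female 1 lay below the 5940 CPM of arteriolar-like cells in Male 1. The venous-like level was called lower (log2 -0.63, adjusted p = 0.000221), which was lost without Male 2 (log2 -0.42, adjusted p = 0.131) and turned to a log2 of 0.077 with finer clustering.

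Macrophage-like cells carried *Igf1* unevenly. They were divided into M1-like cells (856, 392 and 338), *Trem2*-high cells (262, 151 and 134) and a small M2-like subset (38, 52 and 30), with 314, 102 and 119 cells unnamed, and 2845 genes were tested, 2 of them members. *Igfbp4* passed the filter on low counts through the M2-like cells alone, so only *Igf1* is read as a test. It was lower in M1-like cells, where 9.17% of all genes were lower and 16.7% higher. It was higher in M2-like cells, beside 6.71% of all genes higher and 12.1% lower, and in *Trem2*-high cells, beside 5.76% and 4.43%.

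*Igf1* had 28.5, 27.7 and 36.6 CPM in M1-like, 127, 134 and 173 CPM in *Trem2*-high and 277, 228 and 164 CPM in M2-like cells. M1-like cells lay below the other subsets in every library, by 4.81-fold (log2 -2.27, adjusted p = 5.2e-10), and M2-like cells were 3.29-fold above the mean of the others (log2 1.72, adjusted p = 7.98e-06). The *Trem2*-high level was called at an adjusted p of 0.0499 (log2 0.55), and this was lost when any one library was left out (adjusted p = 0.103 without Female 1, 0.172 without Male 1 and 0.218 without Male 2). *Igfbp4* had 317, 228 and 93.6 CPM in M2-like cells, from 21 of 38, 15 of 52 and 2 of 30 cells with a UMI, and 11.3, 5.54 and 3.85 CPM in M1-like cells. Summed fibroblast markers were at 0 to 101 CPM in M2-like cells, without tear-product and mitochondrial UMIs, against 36315 to 44847 CPM in fibroblast-like cells.

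In duct-like cells, UMIs of *Igfbp2* were seen in basal-type and not in luminal-type cells. Basal-type cells (369, 168 and 111), named from *Krt17*, *Smoc2*, *F3*, *Krt5* and *Krt14*, had 46.0, 45.9 and 80.5 CPM, with a UMI in 42 of 369, 10 of 168 and 5 of 111 cells, and luminal-type cells (508, 89 and 62) had no UMI in any library, with 144, 71 and 99 duct-like cells unnamed. The luminal-type clusters, named from *Wfdc2*, *Gpha2*, *Krt19*, *Ly6d* and *Crisp1*, carried the basal list at a raised level too. Against a floor of 3 UMIs per library, the basal-type level was at least 29.1-fold higher in Female 1 and at least 2.40-fold in each male library, since the male luminal-type cells were few. Since *Igfbp2* passed the filter on low counts through the basal-type cells alone, no test is given for it. Of the other members tested, edgeR and DESeq2 called 0 in either direction and 0 had an unadjusted p under 0.05, beside 10.7% of 2133 genes higher and 6.47% lower in basal-type cells. Summed MEC markers were at 3462 to 5306 CPM in basal-type and 3333 to 4894 CPM in luminal-type cells, without tear-product and mitochondrial UMIs. The MEC list includes *Krt14*, which also named the duct-like class and the basal-type cells, so this sum does not measure RNA of MEC-like cells alone. The receptor *Igf1r* had 153, 45.9 and 68.1 CPM in basal-type and 165, 82.7 and 123 CPM in luminal-type cells, which was not called (log2 -0.26, adjusted p = 0.350). No member passed the filter on low counts within acinar-like cells, so their subsets were not compared.

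**Figure D3:**
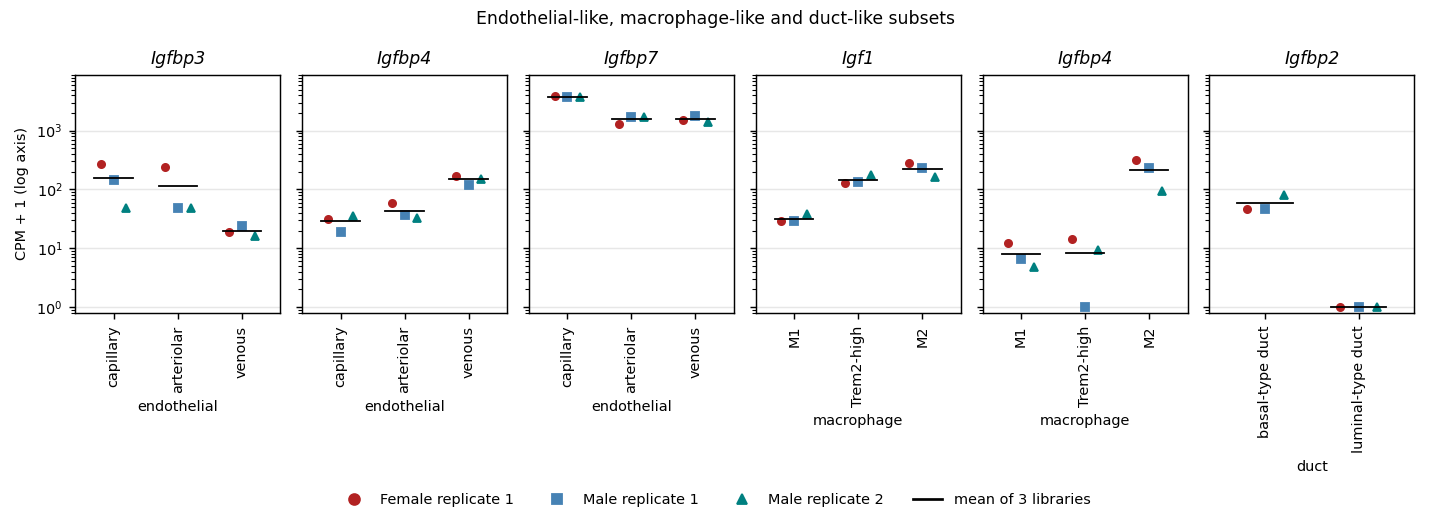
Levels (CPM plus 1, log axis) of *Igfbp3*, *Igfbp4* and *Igfbp7* in endothelial-like subsets, of *Igf1* and *Igfbp4* in macrophage-like subsets and of *Igfbp2* in duct-like subsets, with 1 point per library and a line at the mean. *Igfbp4* is high in venous-like cells, *Igf1* is lowest in M1-like cells, and *Igfbp2* is at 0 in luminal-type cells.

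How many cells of a class carried each gene was compared after thinning every cell to 1000 UMIs, since depth differed between libraries. In MEC-like cells, 69.8% (62.0 to 78.2% over libraries) had a UMI of *Igfbp2* and 69.7% (60.9 to 83.0%) one of *Igfbp5*. *Igfbp7* was found in 86.2% of mural-like, 82.5% of endothelial-like and 68.8% of fibroblast-like cells. Fibroblast-like cells had a UMI of *Igfbp4* in 56.5% (50.3 to 68.9%), of *Igfbp6* in 34.3% (27.0 to 40.8%) and of *Igf1* in 33.2% (24.0 to 39.0%), the last against 5.68% (5.14 to 6.53%) of macrophage-like cells. *Igf1r* was sparse even where it was highest, in 8.23 to 9.94% of MEC-like and 5.02 to 14.5% of duct-like cells over the libraries. *Igfbp3* was in 30.3% of fibroblast-like cells of Female 1 and 0.901% of those of Male 2. For comparison, lymphoid-like cells, for which free RNA was estimated at 52.2%, 78.0% and 79.4% of UMIs, had a UMI of *Igf1* or of any one binding protein in at most 0.408% of thinned cells and one of *Igf1r* in 0.342 to 2.90%. Before thinning, their median depth was 2321, 1355 and 1028 UMIs, against 3118, 1529 and 1251 in fibroblast-like cells.

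Within fibroblast-like cells, some pairs of these genes were seen in the same cells more often than others. *Igfbp5* was seen in 26.5%, 4.60% and 6.09% of thinned cells with a UMI of *Igfbp7* and in 52.1%, 14.8% and 32.4% of those without, lower with *Igfbp7* in each library. With *Igfbp6* the direction was the opposite: *Igfbp5* was in 47.0%, 12.8% and 35.0% of cells with *Igfbp6* and in 26.6%, 4.26% and 6.94% of cells without. *Igf1* went with *Igfbp7*, in 38.8%, 43.8% and 27.9% of cells with it and 29.0%, 28.0% and 18.4% without. In Female 1, *Igfbp3* was in 33.6% of cells with *Igfbp7* and 18.4% without, but in 17.8% of cells with *Igfbp6* and 34.9% without. In MEC-like cells, *Igfbp2* was in 63.0%, 67.1% and 77.0% of cells with *Igfbp5* and 56.9%, 72.7% and 80.0% of cells without, with no common direction. These shares are descriptions, and cells of a library share its depth and free RNA.

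Other genes of the pathway were read from a list of 37, all present in the matrices, of which 29 were tested. Of these, *Adam12*, *Pappa* and *Stc1* reached the minimum of the filter on low counts in 0 sums outside their highest class. *Grb14* and *Stat5a* reached it in only 2 such sums each. The calls of these 5 genes are therefore not read. Over the 10 classes, the other 24 genes were higher in 72 of 240 tests and lower in 46. Fibroblast-like cells had the most genes of the list higher, 17 of 24 beside 28.1% of all genes, with 1 lower beside 12.8%, and the list's median log2 fold change was 1.23 there beside 0.08 for all genes. Endothelial-like cells had 11 higher beside 23.2% of all genes and 4 lower beside 10.6% (median 0.48 beside 0.03). MEC-like cells had 9 higher beside 21.3% and 2 lower beside 10.9% (median 0.44 beside 0.01). Acinar-like cells had 8 higher, or 33.3% of the list beside 32.6%, and 6 lower beside 19.7%. Duct-like cells had 6 higher beside 18.5% and 2 lower beside 8.59%, and mural-like cells 4 higher beside 10.2% and 1 lower beside 7.03%. Lymphoid-like cells had 4 higher beside 19.5% and 5 lower beside 11.7%, *Ltf+* epithelial-like cells 5 beside 22.1% and 6 beside 11.7%, and macrophage-like cells 5 beside 27.4% and 8 beside 12.1%. Monocyte/dendritic-like cells had 3 higher beside 17.6% and 11 lower, or 45.8% of the list beside 10.9%, with a median of -1.20 beside -0.17. In acinar-like, lymphoid-like and *Ltf+* epithelial-like cells the shares called higher were near those of all genes.

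*Pappa*, which encodes pregnancy-associated plasma protein A, had 142, 68.5 and 34.1 CPM in fibroblast-like cells, the class in which *Igfbp4* was also highest, and *Adam12*, another protease of IGF-binding proteins, had 16.4, 19.3 and 27.8 CPM there. These are levels with no test. Among fibroblast-like subsets, *Pappa* had 192, 88.7 and 57.4 CPM in parenchymal-like cells and no UMI in adventitial-like cells, where 3 UMIs would be 7.35 to 52.4 CPM. Endothelial-like cells had *Stc1*, which encodes an inhibitor of pregnancy-associated plasma protein A, at 18.7, 22.6 and 22.4 CPM, again with no test, and *Grb10*, an adaptor that restrains insulin and IGF receptors, at 65.2, 32.5 and 13.8 CPM (adjusted p = 1.84e-14), below fibroblast-like cells at 82.0, 35.1 and 27.8 CPM. *Adamts1*, a secreted metalloprotease, was called in duct-like cells (206, 143 and 135 CPM), MEC-like cells (203, 218 and 257 CPM) and mural-like cells (189, 312 and 212 CPM), and endothelial-like cells had 274, 232 and 209 CPM.

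The genes named here have the largest fold changes of a class and are not always highest in it. MEC-like cells had *Irs1*, a docking protein of the IGF1 receptor, at 17.3, 10.1 and 11.8 CPM, below fibroblast-like cells at 30.0, 22.8 and 13.9 CPM. Duct-like cells had *Ghr*, the growth hormone receptor, at 53.9, 34.8 and 33.0 CPM, again below fibroblast-like cells at 59.4, 41.2 and 37.9 CPM. *Ghr* was also called higher in acinar-like cells (log2 1.30), where its CPM was 2.46, 3.91 and 3.91, or 27.5, 44.2 and 47.1 without tear-product and mitochondrial UMIs, so its place there depends on the denominator. Macrophage-like cells had *Pik3cb*, a PI3K subunit, at 42.2, 27.3 and 15.0 CPM and *Grb2*, an adaptor, at 154, 99.7 and 96.8 CPM (log2 2.38), and the mean of *Grb2* was higher in monocyte/dendritic-like cells (129.9 CPM against 117 CPM). *Stat5a*, a transcription factor of the growth hormone axis, had 36.9, 30.9 and 24.7 CPM in monocyte/dendritic-like and 15.0, 6.42 and 8.71 CPM in lymphoid-like cells. *Pik3cb* was also called in monocyte/dendritic-like cells (26.4, 14.3 and 12.3 CPM). In *Ltf+* epithelial-like cells *Gab1*, a docking protein, had 7.48, 13.2 and 5.95 CPM (log2 1.90, adjusted p = 4.56e-05), below endothelial-like cells at 45.4, 17.0 and 22.4 CPM. The adaptor *Grb14* had 28.7, 27.1 and 0 CPM in mural-like cells, on few UMIs.

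The second ligand, *Igf2*, was too rare to be tested, with 14.7, 5.27 and 1.26 CPM in fibroblast-like cells (87 UMIs) and 9.91, 0 and 5.17 CPM in endothelial-like cells (29 UMIs). *Igf2r*, the receptor that clears IGF2, was called higher in acinar-like cells (10.9, 8.62 and 8.26 CPM, log2 1.88, adjusted p = 1.44e-10), fibroblast-like cells (65.6, 22.8 and 26.5 CPM, log2 1.18, adjusted p = 2.9e-05) and *Ltf+* epithelial-like cells (16.9, 19.7 and 16.7 CPM, log2 1.07, adjusted p = 0.000354). Its acinar-like level was 122, 97.3 and 99.5 CPM without tear-product and mitochondrial UMIs, so the place of that class depends on the denominator, as for *Igf1r*. It was lower in macrophage-like (log2 -2.00) and monocyte/dendritic-like cells (log2 -2.43). *Insr*, the insulin receptor, was highest in endothelial-like cells at 111, 73.5 and 32.8 CPM, 6.80-fold above the mean of the other classes (log2 2.76, adjusted p = 3.24e-12). It was lower in the lymphoid-like, macrophage-like and monocyte/dendritic-like cells, the classes that were also lower in *Igf1r*.

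The genes whose levels ran most like those of each member were read from Pearson's r over the 30 sums of 10 classes and 3 libraries, which share libraries and depth, so no p is given. *Igfbp6* ran with *Apod* (r = 0.99), *Dpep1* (0.98) and *Gria3* (0.98), and *Igf1* with *Abcd2* (0.94), *Cmklr1* (0.93) and *Cxcl14* (0.92). *Igfbp3* ran with *Lpar4* (0.97), *Gm3364* (0.96) and *Pde10a* (0.95), and *Igfbp4* with *Lamc1*, *Gpx8* and *Fstl1* (0.95 each). *Igfbp2* ran with *1500009L16Rik* (0.96), *Cpxm2* (0.96) and *Cck* (0.95), *Igfbp5* with *Rbms3* (0.95), *Arhgef25* (0.94) and *Prelp* (0.93), *Igfbp7* with *Ebf1* (0.97), *Gng11* (0.96) and *Id3* (0.96), and *Igf1r* with *Clock* (0.94), *Prxl2c* (0.93) and *Tulp4* (0.93). *Apod* and *Dpep1* are markers that named the fibroblast-like class and *Cck* one that named the MEC-like class. Among the members, *Igf1* and *Igfbp6* (0.86), *Igfbp2* and *Igfbp5* (0.83) and *Igfbp4* and *Igfbp7* (0.78) were most alike, while the ligand and its receptor were not (*Igf1* and *Igf1r*, 0.01).

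Female and male libraries are set side by side without a test, as CPM without tear-product and mitochondrial UMIs, because tear products took more of the male cells. Of 32 pairs of a gene and a class with enough UMIs, Female 1 was above both male libraries in 20, below both in 8 and between them in 4. *Igf1r* gave 8 of the 20. Over all genes counted in the same classes, 45.9% were above both male libraries and 29% below both. *Igfbp3* in fibroblast-like cells had the widest gap, at 681, 50.4 and 18.2 CPM. This was 19.8-fold between Female 1 and the mean of the males, and came from 2521, 28 and 6 UMIs. With 20 CPM added the log2 ratio was 3.69, the 3rd largest of 8467 genes counted in that class. In parenchymal-like cells a UMI was seen in 736 of 1099, 20 of 492 and 5 of 283 cells. In endothelial-like cells *Igfbp3* had 280, 205 and 57.8 CPM, a 2.13-fold ratio in which Male 1 lay near Female 1.

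Other differences were smaller. *Igfbp5* was above both male libraries in fibroblast-like cells (1351, 333 and 850 CPM) and *Ltf+* epithelial-like cells (262, 86.6 and 101 CPM), by 2.28-fold and 2.79-fold, and *Igfbp7* in acinar-like cells (28.2, 6.74 and 5.75 CPM). *Igf1r* was higher in Female 1 than in both male libraries in each class in which it was counted, with ratios from 1.14 to 2.56. Female 1 was below both males for *Igfbp6* in fibroblast-like cells (669, 1303 and 1133 CPM), for *Igf1* in macrophage-like cells (78.3, 138 and 144 CPM) and for *Igfbp2* in MEC-like cells (2019, 2931 and 3406 CPM). *Igf1* in fibroblast-like cells did not separate, at 728, 1132 and 683 CPM. In fibroblast-like cells the middle of all genes lay at a log2 ratio of 0.16, with 5th and 95th percentiles of -0.51 and 0.75. Sex, core, day and the depth of the libraries all differ between these columns and their parts cannot be told apart.

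**Figure D4:**
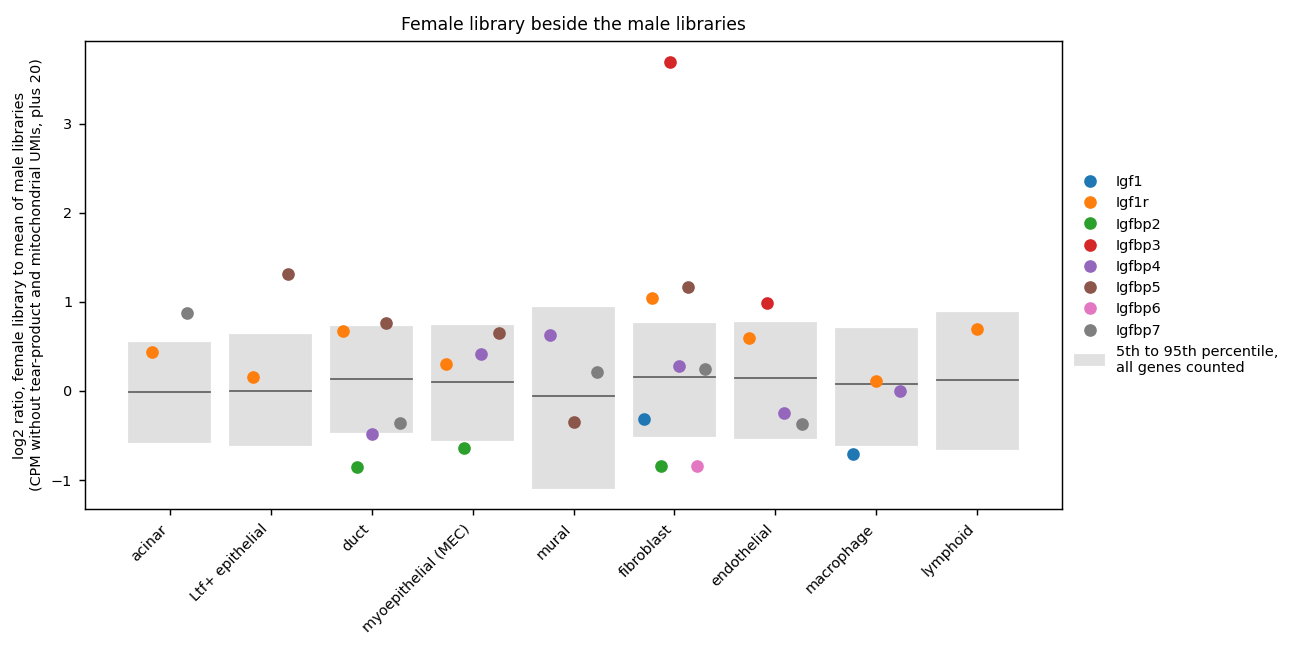
Log2 ratio of Female 1 to the mean of the male libraries for each IGF gene and class (CPM without tear-product and mitochondrial UMIs, plus 20), with a grey bar for the 5th to 95th percentile of all genes counted in the class and a line at their median. *Igfbp3* in fibroblast-like cells lies far above the bar, while *Igfbp6* in the same cells lies below it.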

How the data were processed

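Cells of pooled lacrimal glands were captured with 10x Genomics 3' chemistry. The deposited UMI counts were made by the authors with Cell Ranger 6.1.2 on mm10, and the matrices of barcodes called as cells were used as deposited, without correction for free RNA. The study reduced free RNA with DecontX and compared clusters by a rank test over cells; here counts were left as they were and sums per library were tested.

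Cells were kept at over 500 UMIs, over 200 genes and under 15% mitochondrial UMIs, and doublets were removed by a score at 0.8% per 1000 barcodes, which took 646, 287 and 315 cells from Female 1, Male 1 and Male 2. The kept cells held 55375501, 37754290 and 41316199 UMIs. Libraries were integrated in Seurat 5.3.0 (3000 features, 30 dimensions, resolution 1), with 297 genes left out of the features, the IGF genes and the pathway list among them. Clusters were named from fixed markers, and the score thresholds and the resolutions within lineages were set after looking at the clusters. Names rebuilt in this way may differ from those of the study. A cluster of 20, 37 and 39 cells stayed unnamed.

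UMIs were summed per class and library and tested with edgeR 4.0.16 (filterByExpr, TMM, quasi-likelihood, Benjamini-Hochberg, call at an adjusted p of 0.05, R 4.3.3), with the library as a block because all classes of a library come from 1 suspension. The SE of a log2 fold change was taken from the fold change and its F statistic and is approximate. Intervals from counts cover counting error only. The test was checked on simulated counts. Alternatives were DESeq2 1.42.0, other scaling, filters and clusterings, subtraction of free RNA, no block, another reference and leaving out each library. Thinning to 1000 UMIs left out 0 to 190 shallower cells per class and library. For correlations and ratios of levels, 20 CPM were added before taking logs. Of the pathway list, those with the 2 largest fold changes per class among genes called higher are named, besides *Igf2*, *Igf2r* and *Insr*. For likeness, genes with at least 50 UMIs were ranked and the 3 highest are named. Promoter windows and gene positions come from RefSeq GRCm38.p6 and GENCODE vM21, and all 8 members matched. The members and lists were chosen with earlier results of these data known.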

Additional observations from a re-analysis of the deposited data

How the results depend on the processing

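The fold change of each of the 8 genes in its highest class kept its direction and its call in all 112 alternatives run, which for *Igfbp3* is not read as support, since it passed the filter on low counts through its high classes. For other classes 460 of 504 and for subsets 302 of 329 alternatives did so, and the clustering with doublets kept was not run for subsets. Clustering without integration, subtraction of free RNA and the sum of all others were run for classes only, and without Female 1 there was no value for *Igfbp3* in fibroblast-like and endothelial-like subsets or for *Igfbp2* in duct-like subsets. Higher calls in classes numbered 16 against the sum of all others, and lower calls 30 with DESeq2, 4 with free RNA subtracted and 58 against the sum of all others, in place of 26 and 18. For DESeq2 and free RNA subtraction no share of all genes is given. Whether those moves are particular to the members was therefore not tested. Without the replicate block, subsets gave 12 higher and 9 lower calls in place of 19 and 14. These counts include *Igfbp2* in duct-like and fibroblast-like cells, *Igfbp4* in endothelial-like and macrophage-like cells and *Igfbp3* in endothelial-like and fibroblast-like cells, for which the filter on low counts leaves no call to read. Leaving out 1 library gave 25 to 26 higher and 13 to 19 lower calls in classes, 13 to 18 and 11 to 14 in subsets, and 60 to 71 and 25 to 33 for all 29 genes tested of the pathway list, in place of 81 and 46. Against the sum of all others, 9 log2 fold changes turned negative: *Igfbp2* in duct-like (-1.54), fibroblast-like (-1.25) and mural-like cells (-0.91), *Igfbp4* in duct-like (-0.33), endothelial-like (-0.99) and MEC-like cells (-0.85), *Igfbp5* in duct-like (-1.88) and *Ltf+* epithelial-like cells (-1.11) and *Igfbp6* in MEC-like cells (-1.84). Each of these genes has a class far above the one tested, which the sum includes, but the cause of the turns was not tested. *Igfbp7* in venous-like cells reached 0.077 at resolution 2 and the cause was not tested. Lower calls of *Igfbp2* in acinar-like, *Ltf+* epithelial-like, lymphoid-like and macrophage-like cells were lost without Male 1, and those of *Igfbp4* in acinar-like, *Ltf+* epithelial-like and monocyte/dendritic-like cells without Female 1. Unthinned shares of cells with a UMI were 48.1% for *Igf1*, 47.3% for *Igfbp6* and 70.9% for *Igfbp4* in fibroblast-like cells, 20.2% for *Igf1r* in duct-like cells, 85.5% for *Igfbp2* and 83.2% for *Igfbp5* in MEC-like cells and 86.5% for *Igfbp7* in endothelial-like cells. *Igf2* had too few UMIs for a test, and the mural-like, M2-like and *Mfap4*/*Cilp* groups held 25 to 68 cells per library.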
